A study of Mus musculus with 6 samples.

Results

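The growth hormone and insulin-like growth factor (IGF) axis was described here through 10 genes, taken by symbol from the 34685 genes with a deposited normalised value, out of 55536 genes with a raw read count. They were the growth hormone receptor gene Ghr, the ligand gene Igf1, the acid-labile subunit gene Igfals, the binding protein genes Igfbp1, Igfbp2, Igfbp3, Igfbp4, Igfbp5 and Igfbp7, and the receptor gene Igf1r. All 10 passed the filter on low counts. Bulk RNA-seq had been made of tumors that grew from HCA-1 cells, a murine hepatocellular carcinoma line, after injection under the liver capsule of male C3H mice (C3H/HeNCrNarl in the methods of the study) aged 6 to 8 weeks. The control group held 3 untreated mice, numbered 5, 6 and 7. The GOx-DOX-LGP group held 3 mice, numbered 1, 2 and 5, given an intravenous nanogel that carries glucose oxidase (GOx) in a gelatin and protamine core and doxorubicin (DOX) in a polymer and lipid shell, and their tumors are called treated below. None of the libraries analysed here came from mice given the empty nanogel or either agent alone, so the carrier, the enzyme and the drug cannot be told apart. The labels give days 18, 19 and 20 for the injections but put the transcriptome on day 17, following a circulation of 3 h, and this conflict was not resolved.

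Growth hormone from the pituitary binds its receptor on hepatocytes, where the kinase JAK2 and the transcription factor STAT5B switch on Igf1 and Igfals. Most circulating IGF-I then travels in a ternary complex with IGFBP3 or IGFBP5 and the acid-labile subunit, while IGFBP1 and IGFBP2 form smaller complexes and follow insulin and feeding. Released IGF-I signals through the tyrosine kinase IGF1R, which adult hepatocytes carry at low levels and which many tumor cells carry at higher ones.

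The libraries held between 15529940 and 18401178 counts, so that 3 counts, taken as the lowest level a library could show, corresponded to 0.132 CPM in the deepest library after scaling and to 0.323 CPM in the shallowest (CPM are counts relative to the library total, here with the TMM factors of edgeR). Such floors and the intervals below cover counting error only. Control 5 stood apart from the other control libraries and was closer to the treated tumors in its marker levels. Its label was kept, and whether its tissue make-up matched that of controls 6 and 7 was not tested, which bears on every control mean and fold change given here. The summed level of 10 hepatocyte markers was 645 CPM in control 5, 121119 in control 6 and 202597 in control 7, against 3423, 1344 and 1850 CPM in treated tumors 1, 2 and 5. Alb, the albumin gene, followed the same order, with 353, 73804 and 128244 CPM in the controls against 1893, 733 and 1061 CPM in the treated tumors, as did Ttr and Apoa1. None of the 10 markers was at 0 in any library. In the opposite direction, 5 proliferation genes led by Mki67 summed to 879, 242 and 32.1 CPM in the controls against between 607 and 755 CPM in the treated tumors. In such bulk RNA, fewer cells of a type and less RNA per cell cannot be told apart. The results for the 10 genes are therefore also given without control 5, and with the mean log2 level of the hepatocyte markers as a covariate. Control 5 was singled out after its levels had been seen. For a gene where it lies with the treated tumors, leaving it out widens the difference and lowers the p-value by construction. Adjusted p-values without control 5 are given below as description only, and no conclusion is drawn from them.

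In the quasi-likelihood test of edgeR, with Benjamini-Hochberg adjustment over 15374 genes, 0 of the 10 axis genes had an adjusted p under 0.05, where the share over all genes was 0%. At an unadjusted p under 0.05, 5 of the 10 were lower in GOx-DOX-LGP tumors, namely Igf1, Igfals, Igfbp1, Igfbp2 and Igfbp5, and none was higher. Over all genes tested, 14.6% were lower and 2.87% higher by the same rule. The edgeR log2 fold change was negative for 7 of the 10 genes and positive for Igfbp3, Igfbp7 and Igf1r. This split was the same with DESeq2 size factors, with upper-quartile scaling and with scaling by library totals alone, which moved the median of all genes from 0.02 to 0.51. The median over the 10 genes was -1.26 with TMM scaling. DESeq2 gave 3 genes with an adjusted p under 0.05, Igf1, Igfals and Igfbp2, all lower. Of all genes it tested, 5.03% passed and 4.73% were called lower. These DESeq2 shares are over 33397 genes, without the filter on low counts, and count a gene with no adjusted p as not called. They are therefore no like-for-like background for genes that passed the filter. Without control 5, 8 of the 10 genes passed in the edgeR test, Ghr, Igf1, Igfals, Igfbp1, Igfbp2 and Igfbp4 lower and Igfbp3 and Igf1r higher. That count stands beside 47.7% of all genes called there, 25.5% lower and 22.2% higher. With limma voom and sample quality weights the same 8 genes were called in the same directions, beside 60.2% of all genes, 30.9% lower and 29.2% higher. Those weights come from the same libraries, and the weight of control 5 is not reported here. This fit is therefore no separate check on the fit without control 5. With the hepatocyte covariate, 0 of the 10 passed in edgeR and 0 had an unadjusted p under 0.05, against 6.57% of all genes (4.31% lower and 2.26% higher), and the median of the 10 log2 fold changes was 0.15.

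**Figure D1:**
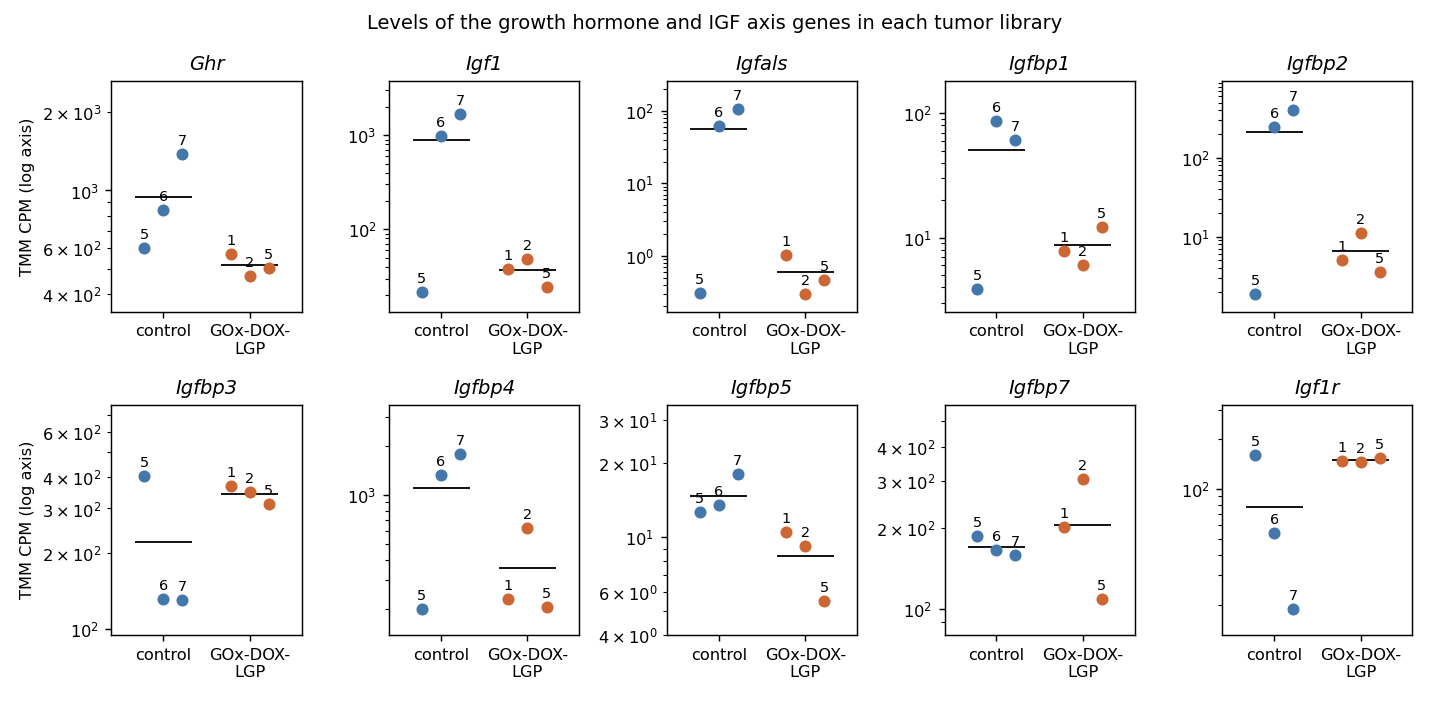
Level of each of the 10 axis genes (TMM CPM, log axis) in 3 control and 3 GOx-DOX-LGP tumors, 1 point per library labelled with its mouse number and a bar at the group mean. For Igf1, Igfals, Igfbp1 and Igfbp2, control 5 lies with or below the treated tumors and controls 6 and 7 lie far above them, while for Ghr and Igfbp5 the treated tumors lie below all controls.

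Ghr encodes the growth hormone receptor, through which the pituitary signal reaches the cell (GRCm38 chromosome 15, 3317760 to 3583492, minus strand). Its level was 603, 841 and 1383 CPM in controls 5, 6 and 7, against 573, 470 and 505 CPM in treated tumors 1, 2 and 5. All treated tumors were below all controls, although control 5 was only slightly above treated tumor 1. Non-overlap with lower treated values was found for 2 of the 10 genes, Ghr and Igfbp5, beside 8.31% of all genes, and with higher treated values for 0 of the 10, beside 8.87%. Means were 942 ± 399.8 CPM for controls against 516 ± 52.2 CPM for treated tumors (SD, n = 3 each). On the log2 scale the groups differed by -0.87 (standard error 0.42, edgeR adjusted p = 0.333). Without control 5 it was -1.07 (edgeR adjusted p = 0.0205), and with the hepatocyte covariate -0.39 (standard error 0.25). Under scaling by library totals alone the groups overlapped for both Ghr and Igfbp5, with a log2 fold change of -0.19 for Ghr.

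Igf1 encodes the ligand IGF-I, the main mediator of growth hormone action made by the liver (chromosome 10, 87858265 to 87937042, plus strand). It measured 21.5, 990.1 and 1687 CPM in controls 5, 6 and 7, against 37.5, 48.6 and 24.3 CPM in treated tumors 1, 2 and 5. Controls 6 and 7 were high, and control 5 was the lowest library of all, so that the groups overlapped. The fitted log2 fold change was -4.61 (standard error 1.41, edgeR adjusted p = 0.247), and DESeq2 gave an adjusted p of 0.00211. Without control 5 it was -5.15 (edgeR adjusted p = 9.57e-05). With the hepatocyte covariate it was -0.49 (standard error 0.49). The antisense gene Igf1os overlaps Igf1 on the opposite strand but not at exons, and had 48 counts over all libraries together.

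Receptor and ligand of the growth hormone arm differed in how far they spanned. Per exonic length, the level of Ghr lay between 52.0 and 153 CPM per kb over the 6 libraries, and that of Igf1 between 2.17 and 170.3 CPM per kb. Within a library, Ghr had 30.6 counts per kb for each count per kb of Igf1 in control 5, 0.930 in control 6 and 0.897 in control 7, against 16.7, 10.6 and 22.7 in treated tumors 1, 2 and 5. The RNA of the receptor was thus above that of the ligand in control 5 and in all treated tumors, and close to it in controls 6 and 7. These ratios do not depend on the scaling between libraries, and they were chosen after the levels had been seen.

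Igfals encodes the acid-labile subunit, a leucine-rich liver protein that holds IGF-I in the ternary complex (chromosome 17, 24865997 to 24882010, plus strand). RefSeq lists 3 start sites for it, and 2 of the 3 promoters held the letters TTCNNNGAA, the palindrome known from STAT5 binding sites. The 250 bases before those starts are shown because Igfals was the axis gene with the largest difference and is a known target of growth hormone through STAT5, with the matching letters in capitals (GRCm38.p6, plus strand, chr17:24877594-24877843 and chr17:24877981-24878230).
Igfals, first start: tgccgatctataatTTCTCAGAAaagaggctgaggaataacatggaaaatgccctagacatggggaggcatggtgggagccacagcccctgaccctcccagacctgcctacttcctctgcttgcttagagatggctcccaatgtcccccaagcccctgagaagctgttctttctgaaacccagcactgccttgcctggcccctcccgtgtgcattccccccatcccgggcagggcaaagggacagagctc
Igfals, second start: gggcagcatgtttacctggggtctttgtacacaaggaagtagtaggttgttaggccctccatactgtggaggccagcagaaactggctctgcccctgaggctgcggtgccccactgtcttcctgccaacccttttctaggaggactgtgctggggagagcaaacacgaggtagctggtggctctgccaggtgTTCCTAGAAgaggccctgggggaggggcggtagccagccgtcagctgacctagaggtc
The match lay 236 to 228 bases before the first start and 58 to 50 bases before the second. Searched on both strands, 7.02% of 32851 RefSeq promoters of this length held the letters. A match is a description of the sequence, and no binding was measured in these tumors.

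The Igfals level was 0.307, 62.8 and 108 CPM in controls 5, 6 and 7, from 7, 740 and 999 counts. In treated tumors 1, 2 and 5 it was 1.04, 0.294 and 0.468 CPM, from 21, 6 and 9 counts. Controls 6 and 7 thus stood apart from the other libraries, and control 5 and treated tumor 2 were within counting error of each other. Between the groups, the log2 fold change was -6.55 (standard error 1.87, edgeR adjusted p = 0.247), and DESeq2 gave an adjusted p of 0.000562. Without control 5 it was -7.09 (edgeR adjusted p = 6.18e-05), and with the hepatocyte covariate -0.91 (standard error 0.35).

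Igfals was also set against the summed counts of the 10 hepatocyte markers in the same library. For each 10000 marker counts there were 4.76, 5.18 and 5.31 Igfals counts in controls 5, 6 and 7, against 3.03, 2.19 and 2.53 in treated tumors 1, 2 and 5. Controls were nearly level in this ratio despite their spread in hepatocyte markers, and all treated tumors were below them (5.08 ± 0.287 against 2.58 ± 0.425, SD, n = 3 each). The exact (Clopper-Pearson) 95% interval of control 5, from 7 counts, reached from 1.91 to 9.81. Those of treated tumors 1, 2 and 5 reached from 1.88 to 4.64, from 0.803 to 4.76 and from 1.16 to 4.81, so that none of the treated tumors could be told from control 5 at this depth. The intervals of controls 6 and 7, from 4.81 to 5.57 and from 4.98 to 5.65, lay above those of all treated tumors. By point values alone, Igfals was the 1 of the 10 axis genes whose ratio did not overlap between the groups, beside 0.254% of all genes with a lower and 0.234% with a higher ratio in treated tumors. The marker sum was 14709 counts in control 5, 1428229 and 1882673 in controls 6 and 7, and between 27431 and 69246 in treated tumors. A gene that does not follow the markers thus overlaps in this ratio almost of necessity. These shares are therefore no like-for-like background for Igfals. The same ratio of Ghr was 9341 in control 5, 69.5 and 68.3 in controls 6 and 7 and between 1674 and 3501 in treated tumors. That of Igf1 was 334, 81.7 and 83.2 in controls 5, 6 and 7, against 109.6, 362 and 132 in treated tumors 1, 2 and 5. An exact permutation test on the log2 ratio gave p = 0.1 for Igfals, 0.4 for Ghr and 0.5 for Igf1, and 0.1 is the smallest that 3 libraries against 3 allow. The ratio was chosen after the levels had been seen, so no conclusion is drawn from that test.

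Igfbp1 and Igfbp2 encode the binding proteins that respond to insulin and to feeding in the liver. Igfbp1 lies on chromosome 11 from 7197782 to 7202546 (plus strand), and its promoter held CAAAACA, the core of the insulin response element that FOXO factors bind. The 250 bases before its start are shown for that element, in capitals (GRCm38.p6, plus strand, chr11:7197537-7197786).
Igfbp1: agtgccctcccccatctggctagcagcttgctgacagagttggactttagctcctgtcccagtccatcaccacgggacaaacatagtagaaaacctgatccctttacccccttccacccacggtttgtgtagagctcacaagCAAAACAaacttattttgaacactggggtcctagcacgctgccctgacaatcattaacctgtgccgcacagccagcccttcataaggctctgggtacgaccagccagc
The match lay 108 to 102 bases before the start, and 5.56% of the 32851 promoters held the same letters on either strand. Of 14 promoters searched for the axis genes, 3 held either element, all shown here, and no match says only that these letters are not in the window.

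The Igfbp1 level was 3.86, 86.3 and 61.3 CPM in controls 5, 6 and 7, against 7.76, 6.07 and 12.2 CPM in treated tumors 1, 2 and 5. Control 5 was again the lowest library, and controls 6 and 7 were the highest. The log2 fold change was -2.54 (standard error 1.01, edgeR adjusted p = 0.275). Without control 5 it was -3.06 (edgeR adjusted p = 0.000321), and with the hepatocyte covariate its sign turned, to 0.18 (standard error 0.45).

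Igfbp2, on chromosome 1 from 72824503 to 72852474 (plus strand), measured 1.89, 243 and 400.1 CPM in controls 5, 6 and 7, against 4.99, 11.1 and 3.59 CPM in treated tumors 1, 2 and 5. The groups overlapped through control 5, which had 43 counts where controls 6 and 7 had 2867 and 3718. edgeR gave a log2 fold change of -5.03 (standard error 1.67, edgeR adjusted p = 0.247), and DESeq2 gave an adjusted p of 0.00316. Without control 5 it was -5.58 (edgeR adjusted p = 0.000172), and with the hepatocyte covariate it was 0.21 (standard error 0.83).

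Igfbp3 encodes the main carrier of IGF-I in serum and lies beside Igfbp1, tail to tail, with 3.5 kb and no coding gene between them (chromosome 11, 7206086 to 7213923, minus strand). Its level was 404, 132 and 130.2 CPM in controls 5, 6 and 7, against 369, 347 and 311 CPM in treated tumors 1, 2 and 5. Here control 5 was the highest library, and controls 6 and 7 were the lowest, the reverse of its neighbour. On the log2 scale the groups differed by 0.62 (standard error 0.51, edgeR adjusted p = 0.515), and 1.42 without control 5 (edgeR adjusted p = 0.00166). With the hepatocyte covariate it was 0.15 (standard error 0.22). Igfbp3 had 51.0, 0.744 and 1.03 counts per kb for each count per kb of Igfbp1 in controls 5, 6 and 7, against 23.1, 27.9 and 12.5 in treated tumors 1, 2 and 5.

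Igfbp5 encodes a binding protein that can also enter the ternary complex and that binds extracellular matrix, and it lies 5.5 kb from Igfbp2, tail to tail, again with no coding gene between them (chromosome 1, 72857932 to 72874884, minus strand). It measured 12.7, 13.5 and 18.1 CPM in controls 5, 6 and 7, against 10.5, 9.21 and 5.52 CPM in treated tumors 1, 2 and 5. All controls were above all treated tumors, and unlike for Igfbp2, control 5 was close to control 6. The mean was 14.7 ± 2.91 CPM in controls and 8.42 ± 2.60 CPM in treated tumors (SD, n = 3 each). The fitted log2 fold change was -0.81 (standard error 0.33, edgeR adjusted p = 0.282). It was -0.87 without control 5 (edgeR adjusted p = 0.0607) and -0.63 with the hepatocyte covariate (standard error 0.33), and it passed the threshold in none of these fits. Igfbp5 had 2.07, 0.0171 and 0.0139 counts per kb for each count per kb of Igfbp2 in controls 5, 6 and 7, against between 0.256 and 0.649 in treated tumors.

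Igfbp4, which encodes a binding protein known to hold IGF-I away from its receptor until the protease PAPP-A cuts it, lies on chromosome 11 from 99041244 to 99054392 (plus strand). It measured 198, 1330.0 and 1789 CPM in controls 5, 6 and 7, against 228, 628 and 203 CPM in treated tumors 1, 2 and 5. Treated tumor 2 was between the high controls and the other low libraries. Between the groups, the log2 fold change was -1.65 (standard error 0.89, edgeR adjusted p = 0.365), -2.11 without control 5 (edgeR adjusted p = 0.0135) and 0.17 with the hepatocyte covariate (standard error 0.66). Other genes share 1.72% of the 50-base stretches of its transcripts, which leaves few of its counts uncertain.

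Igfbp7 encodes a secreted protein of vessels and stroma that binds IGFs weakly (chromosome 5, 77349240 to 77408041, minus strand). It measured 186, 166 and 159 CPM in controls 5, 6 and 7, the narrowest spread of the 10 genes among controls relative to the mean, and 202, 303 and 109 CPM in treated tumors 1, 2 and 5. The treated tumors enclosed all the controls. The log2 fold change was 0.27 (standard error 0.40, edgeR adjusted p = 0.699), 0.37 without control 5 and 0.15 with the hepatocyte covariate, and it turned to -0.11 when treated tumor 2 was left out. Fibroblast and stellate cell markers, a list of 9 genes led by Col1a1, summed to 5758, 1857 and 1591 CPM in controls 5, 6 and 7, against to 4607, 6920.1 and 2207 CPM in treated tumors 1, 2 and 5. This sum, most of it Col1a1, Col1a2 and Col3a1, followed the order of Igfbp7 within each group, but 4 of the 9 markers did not. Among the controls, Dcn, Lum, Lrat and Reln were lowest in control 5. Among the treated tumors, Lrat and Reln were highest in treated tumor 1. Reln measured 18.5, 70.5 and 129 CPM in controls 5, 6 and 7 against between 7.30 and 13.7 CPM in treated tumors. None of the 9 was at 0, and their part in the level of Igfbp7 was not tested. Polr2b overlaps exons of Igfbp7 on the opposite strand, and other genes share 2.99% of its 50-base stretches, so a part of its counts is uncertain.

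Igf1r encodes the receptor tyrosine kinase that receives IGF-I (chromosome 7, 67952827 to 68233668, plus strand). Its level was 160.4 CPM in control 5, 54.4 in control 6 and 18.8 in control 7, and 148, 144 and 153 CPM in treated tumors 1, 2 and 5. The treated tumors were close together, at 148 ± 4.57 CPM (SD, n = 3), and control 5 was just above them. edgeR gave a log2 fold change of 0.93 (standard error 0.72, edgeR adjusted p = 0.494), 2.04 without control 5 (edgeR adjusted p = 0.00693) and 0.36 with the hepatocyte covariate (standard error 0.38). For each count per kb of Igf1r there were 0.228, 30.9 and 152 counts per kb of Igf1 in controls 5, 6 and 7, against 0.430, 0.572 and 0.270 in treated tumors 1, 2 and 5. RNA of the ligand was therefore above that of its receptor in controls 6 and 7 and below it in the other libraries.

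**Figure D2:**
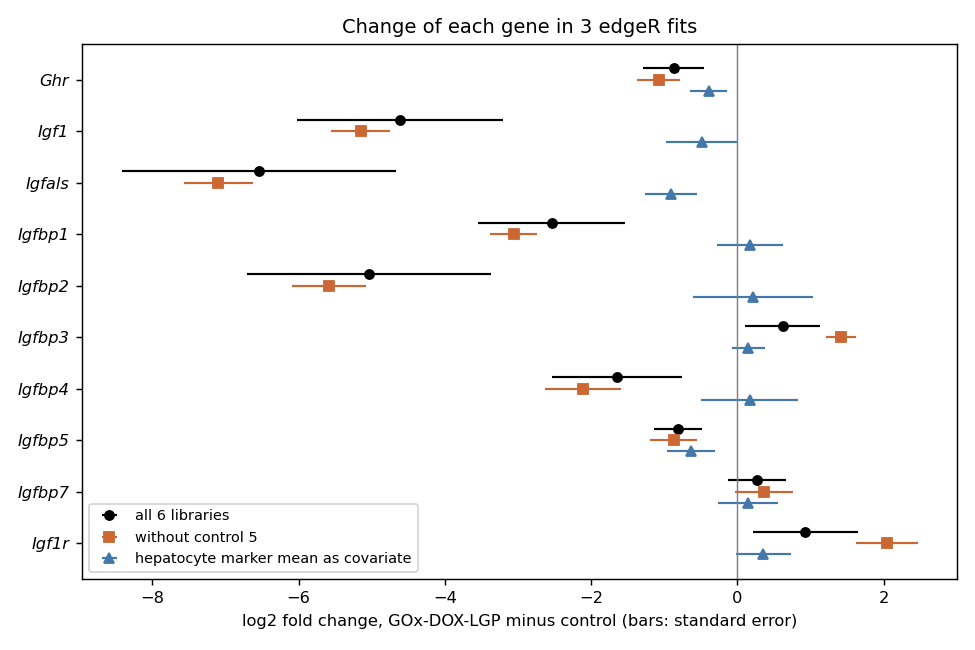
Log2 fold change of each axis gene (GOx-DOX-LGP minus control, horizontal axis, bars show the standard error) in 3 edgeR fits, over all 6 libraries (black circles), without control 5 (orange squares) and with the hepatocyte marker mean as a covariate (blue triangles). Igf1, Igfals and Igfbp2 lie at -4.61, -6.55 and -5.03 over all libraries and between -0.91 and 0.21 with the covariate, whereas Igfbp5 lies between -0.87 and -0.63 in all 3 fits.

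The hepatocyte marker mean used as a covariate was 4.53, 12.33 and 13.08 log2 CPM in controls 5, 6 and 7, against 7.14, 5.61 and 6.12 log2 CPM in treated tumors 1, 2 and 5. Since controls 6 and 7 alone were high, this fit rests on control 5 to separate the marker level from the treatment. Igf1, Igfals, Igfbp1, Igfbp2 and Igfbp4 were high in the same libraries as the markers. Igf1r and Igfbp3 were high in the libraries where the markers were low. Igfbp7 did neither, with controls between 159 and 186 CPM at marker sums from 645 to 202597 CPM. Endothelial markers, 8 genes led by Eng, summed to 155, 459.6 and 524 CPM in controls 5, 6 and 7 and to between 112 and 164 CPM in treated tumors. With TMM scaling 5 of the 8 were lower without overlap, beside 8.31% of all genes. These 5 include Pecam1 (log2 fold change -0.28) and Cdh5, whose groups overlap under scaling by library totals alone. Cholangiocyte markers, 4 genes led by Sox9, summed to 186, 92.4 and 28.4 CPM in controls 5, 6 and 7 and to between 153 and 194 CPM in treated tumors. This sum, like Igf1r, was lowest in controls 6 and 7, and so was Sox9, but the other markers were not. Krt19 measured 30.7, 69.6 and 13.0 CPM in controls 5, 6 and 7, and Krt7 and Epcam were lowest in treated tumor 5. Leukocyte and macrophage markers, 6 genes led by Csf1r, summed to between 338 and 421 CPM in controls and between 304 and 587 CPM in treated tumors, with members that differed in direction. Of these 6, singled out after their values had been seen, Cd68 was higher in all treated tumors (93.2 to 178 CPM) than in all controls (39.1 to 66.4 CPM). Clec4f and Vsig4, genes of liver-resident macrophages, measured 96.8 and 37.9 CPM in control 6 and 101 and 48.4 CPM in control 7, and at most 12.5 and 10.2 CPM in the other libraries. The part of these cell types in the levels of the axis genes was not tested.

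**Figure D3:**
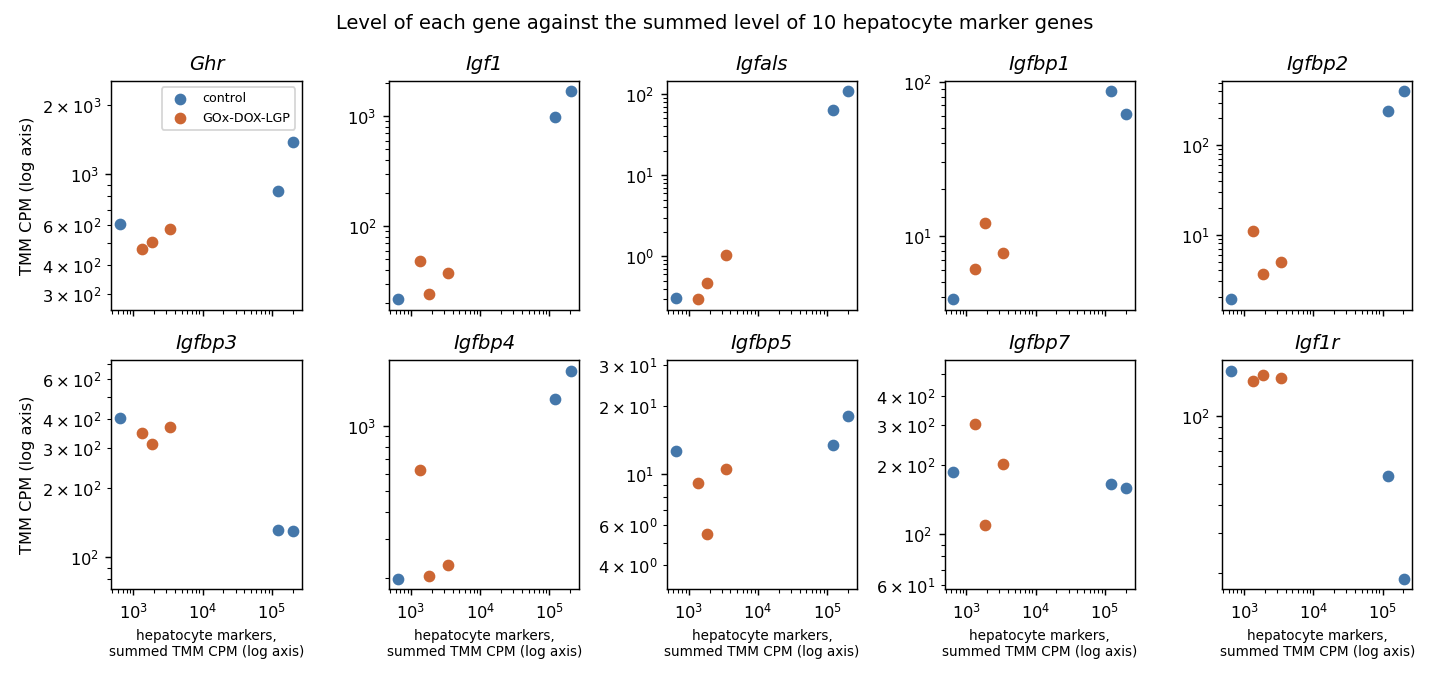
Level of each axis gene (TMM CPM, vertical log axis) against the summed level of 10 hepatocyte markers (TMM CPM, horizontal log axis), 1 point per library, controls in blue and GOx-DOX-LGP tumors in orange. Control 5, at a marker sum of 645 CPM, lies close to the treated tumors for Igf1, Igfals, Igfbp2 and Igf1r, and controls 6 and 7 lie apart at 121119 and 202597 CPM.

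Per exonic length, the order of the mean levels in control tumors was Igfbp4, Igfbp7, Igfbp2, Ghr, Igf1, Igfbp3, Igfbp1, Igfals, Igf1r and Igfbp5, from 250.4 ± 185 to 2.46 ± 0.485 CPM per kb (SD, n = 3). No gene in this order differed from the next by more than the larger of their standard deviations. In treated tumors the order was Igfbp7, Igfbp3, Igfbp4, Ghr, Igf1r, Igfbp1, Igf1, Igfbp2, Igfbp5 and Igfals, from 169.6 ± 80.3 to 0.189 ± 0.123 CPM per kb (SD, n = 3). There the steps from Ghr to Igf1r, from Igf1r to Igfbp1 and from Igfbp5 to Igfals were larger than the standard deviations of their neighbours, and the others were not.

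The binding protein genes were next compared within each library, as the share that each took of the counts per kb of the 6 Igfbp genes. This share does not depend on the scaling between libraries. Igfbp1 and Igfbp2 together took 1.06%, 28.1% and 30.6% in controls 5, 6 and 7, against 2.25%, 1.93% and 4.02% in treated tumors 1, 2 and 5. The difference of the means was -17.2 percentage points, from 19.9% ± 16.4 to 2.74% ± 1.12 (SD, n = 3 each, two-sided exact permutation test, p = 0.4). Igfbp7 took 46.2%, 20.4% and 15.7% in the controls, and 48.3%, 48.7% and 36.7% in treated tumors 1, 2 and 5. Its means differed by 17.1 percentage points, from 27.4% ± 16.4 to 44.6% ± 6.83 (SD, n = 3 each, two-sided exact permutation test, p = 0.2). Adjusted over these 2 shares both p-values were 0.4 (exact permutation test), and the smallest p that 3 libraries against 3 allow is 0.1. Igfbp3 took 38.7%, 6.28% and 4.96% in controls 5, 6 and 7 and between 21.5% and 40.3% in treated tumors, and Igfbp4 took 13.5%, 44.9% and 48.3% in the controls and between 14.9% and 27.6% in treated tumors. Igfbp5 lay between 0.297% and 0.632% in every library. Control 5 thus had a make-up led by Igfbp7 and Igfbp3, as did treated tumors 1 and 5, whereas controls 6 and 7 were led by Igfbp4.

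**Figure D4:**
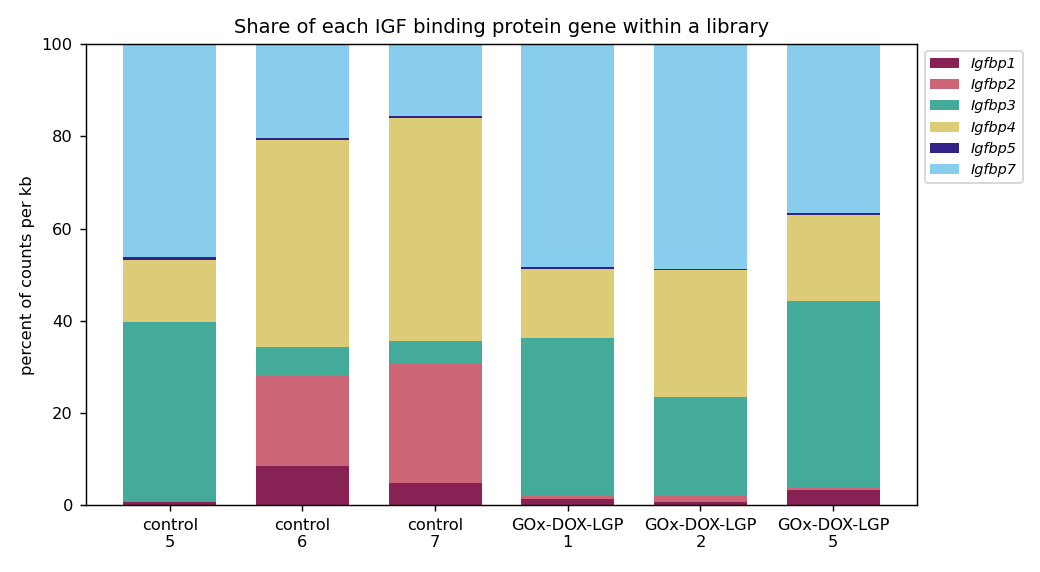
Share of each of 6 IGF binding protein genes in their summed counts per kb (percent, vertical axis, stacked to 100) in each of the 6 tumor libraries. Igfbp1 and Igfbp2 together fill 28.1% and 30.6% of the bars of controls 6 and 7 and at most 4.02% of the others, where Igfbp7 and Igfbp3 fill most of the bar.

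Of 49 other genes of the axis, listed by role, 42 passed the filter on low counts, 0 had an edgeR adjusted p under 0.05, and 16 were lower and 0 higher at an unadjusted p under 0.05, beside 14.6% and 2.87% of all genes. Their median log2 fold change was -0.23, and it turned to 0.25 under scaling by library totals, which moved the median of all genes to 0.51. DESeq2 gave 10 of the 42 with an adjusted p under 0.05, all lower. The share over the 33397 genes it tested without that filter was 4.73%. Of the 16 lower at an unadjusted p and the 10 called by DESeq2, 9 and 8 were growth hormone response genes of male liver, given below. Without control 5, 7 of the 42 were called higher and 18 lower in the edgeR test, beside 22.2% and 25.5% of all genes.

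Other ligands were near the limit of detection. Gh, the growth hormone gene, had 3 counts in control 5 and 0 in all other libraries, Igf2 had at most 3 counts in a library, and Prl had none. Igf1 was therefore the ligand gene that passed the filter. Among other receptors, Prlr, the prolactin receptor gene, measured 0.0877, 244 and 301 CPM in controls 5, 6 and 7, against 1.98, 0.686 and 1.51 CPM in treated tumors 1, 2 and 5. The difference was -7.02 on the log2 scale (standard error 2.25, edgeR adjusted p = 0.247), and control 5 held only 2 counts. Insr, the insulin receptor gene, measured 50.8, 237 and 288 CPM in the controls against 47.7, 62.5 and 44.3 CPM in treated tumors 1, 2 and 5 (log2 fold change -1.90, standard error 0.63, edgeR adjusted p = 0.247). Both receptors were high in controls 6 and 7, in contrast to Igf1r.

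The 14 genes that carry the signal from these receptors had a median log2 fold change of 0.08, with 8 positive and 6 negative, or 10 and 4 under scaling by library totals. The largest differences were those of Irs1, an insulin receptor substrate gene (-0.97, standard error 0.53), and Pik3r1, which encodes a regulatory subunit of PI3K (-0.89, standard error 0.31). Pik3r1 measured 76.2, 119 and 154 CPM in controls 5, 6 and 7 and between 55.5 and 72.7 CPM in treated tumors, without overlap except under library totals. It was the 1 of the 14 lower without overlap, beside 8.31% of all genes. Grb2 was the 1 higher without overlap, beside 8.87%. Neither Irs1 nor Pik3r1 passed the edgeR test after adjustment over all libraries, and without control 5 Pik3r1 did (log2 fold change -1.09, edgeR adjusted p = 0.00432). Of the 14 genes, 3 with a positive value, Irs2, Jak2 and Shc1, turned negative without 1 of the libraries.

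Of 8 negative regulators, 5 had a positive and 3 a negative log2 fold change under every scaling tried. Grb14, an adaptor that inhibits the insulin receptor, measured 15.5, 68.7 and 99.6 CPM in controls 5, 6 and 7, against 15.0, 13.1 and 13.1 CPM in treated tumors 1, 2 and 5. The difference was -2.16 on the log2 scale (standard error 0.64, edgeR adjusted p = 0.247), and without control 5 -2.58 (edgeR adjusted p = 0.000107). Socs1, a feedback inhibitor of JAK kinases, measured 3.95, 0.594 and 0.215 CPM in the controls against 4.94, 3.72 and 7.23 CPM in treated tumors 1, 2 and 5 (log2 fold change 1.67, standard error 0.95, edgeR adjusted p = 0.385). Without control 5 its log2 fold change was 3.67 (edgeR adjusted p = 0.0023), from 7 and 2 counts in controls 6 and 7. The value of control 7 was below the floor of 0.323 CPM of that library. Other feedback inhibitors were singled out after their values had been seen. Socs2, a STAT5 target that restrains growth hormone signalling, measured 28.1, 78.6 and 82.8 CPM in the controls against between 19.7 and 27.7 CPM in treated tumors. Socs3 measured 63.5, 23.2 and 13.5 CPM in the controls against between 79.2 and 85.4 CPM in treated tumors. With TMM scaling the groups did not overlap for either gene, the treated tumors being lower for Socs2 and higher for Socs3. Of the 8 negative regulators, 3 were lower and 1 was higher without overlap, beside 8.31% and 8.87% of all genes. Cish, in the same list, had the opposite sign to Socs2 (log2 fold change 0.61, standard error 0.53), and its groups overlapped. For Socs2, where control 5 and treated tumor 1 were nearly equal, the groups overlapped with DESeq2 size factors and with upper-quartile scaling.

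The 6 measured genes of further binding proteins and their regulators all had a positive log2 fold change, under every scaling tried, with a median of 0.73 and 0 with an unadjusted p under 0.05 in edgeR. The sign of 4 of the 6 turned when 1 library was left out. Without treated tumor 2 the log2 fold change was -0.06 for Pappa, -0.17 for Stc2 and -1.07 for Htra1, which also turned without control 5, and Pappa2 turned without control 7 (-0.28) or treated tumor 1 (-0.03). Pappa, which encodes the protease that cuts IGFBP4, measured 2.11, 0.933 and 0.430 CPM in controls 5, 6 and 7, against 1.63, 8.77 and 0.624 CPM in treated tumors 1, 2 and 5 (log2 fold change 1.61, standard error 1.07). The highest value came from treated tumor 2, and over left-out libraries the log2 fold change ran from -0.06 to 2.42. Stc1, whose product inhibits that protease, measured 31.5, 1.10 and 0.323 CPM in the controls against 27.9, 18.0 and 24.5 CPM in treated tumors 1, 2 and 5 (log2 fold change 1.08, standard error 1.41). Without control 5 it passed in the edgeR test (adjusted p = 0.000215), since controls 6 and 7 were at most at 1.10 CPM and all treated tumors at 18.0 CPM or more. Control 7, at 0.323 CPM, was at the floor of that library.

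Of 10 growth hormone response genes of male liver, 9 passed the filter. These 9 had a negative log2 fold change under every scaling tried, with a median of -6.41. The list was not split by the direction in which growth hormone moves each gene, and Bcl6 had the smallest change (-1.14). All 9 had an unadjusted p under 0.05 in edgeR, beside 14.6% of all genes lower there. In DESeq2 8 passed, beside 4.73% of 33397 genes without the filter. Hsd3b5, a male-specific steroid enzyme gene of the liver, measured 0.263, 199 and 562 CPM in controls 5, 6 and 7, against 1.83, 0.490 and 0.989 CPM in treated tumors 1, 2 and 5 (log2 fold change -7.84, standard error 2.33). Cyp4a12a, a male-specific cytochrome P450 gene, measured 0.702, 511 and 941 CPM in the controls against 5.04, 0.735 and 2.91 CPM in treated tumors 1, 2 and 5 (log2 fold change -7.38, standard error 2.29), and its counts are uncertain because it has a near-identical neighbour, Cyp4a12b. For both genes the groups overlapped through control 5. With the hepatocyte covariate the median of the 9 genes was -0.33.

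Of the IGF mRNA-binding protein genes, Igf2bp2 measured 94.9, 10.8 and 4.63 CPM in the controls against between 50.9 and 75.2 CPM in treated tumors (log2 fold change 0.84, standard error 1.05), and without control 5 its log2 fold change was 3.11 (edgeR adjusted p = 0.000804). Igf2bp3 measured 1.89, 1.53 and 2.26 CPM in the controls against 0.939, 1.18 and 0.989 CPM in treated tumors 1, 2 and 5 (log2 fold change -0.86, standard error 0.33), from at most 43 counts in a library.

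**Figure D5:**
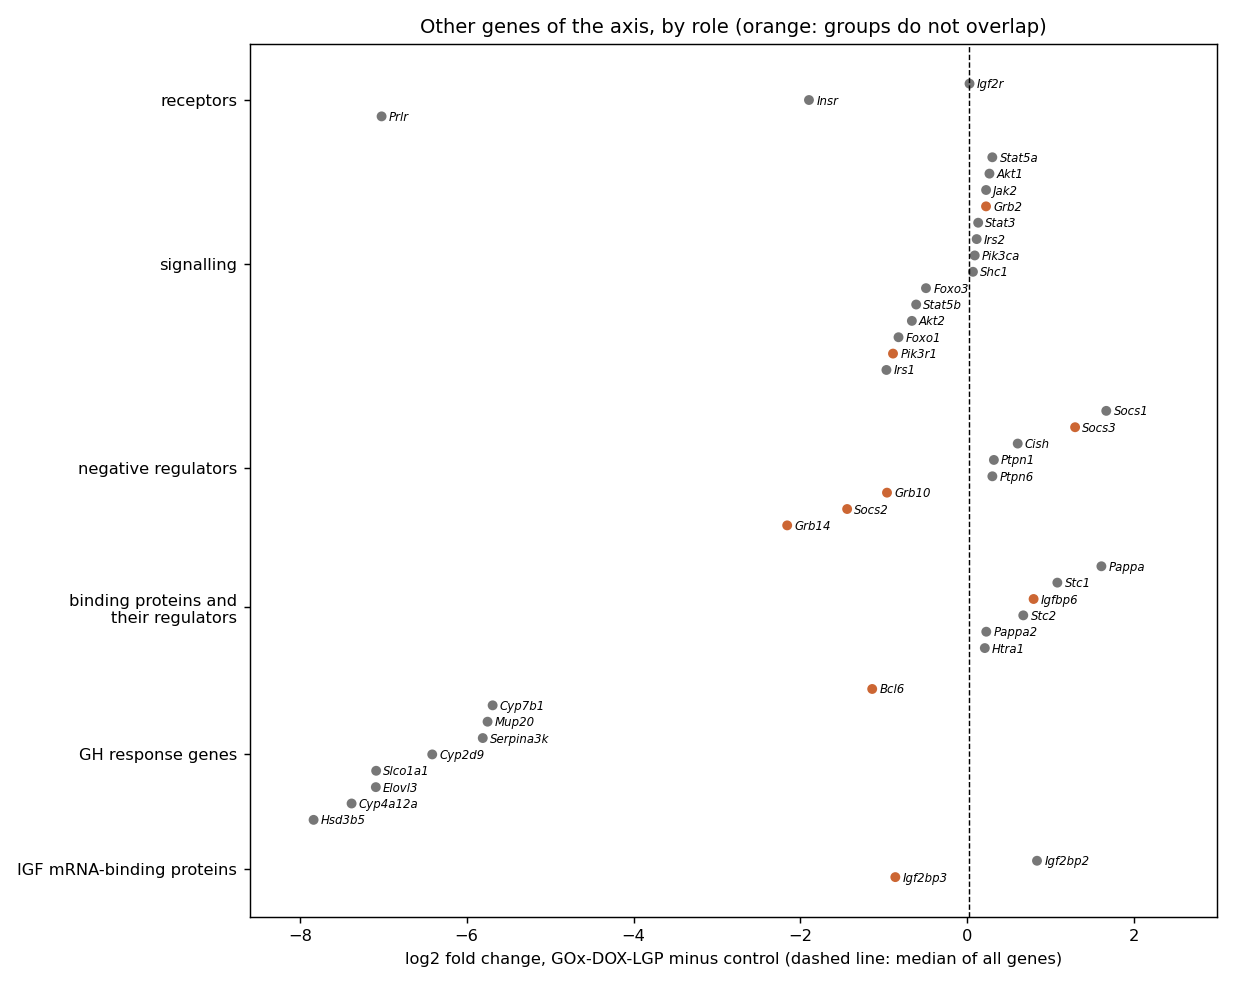
Log2 fold change (GOx-DOX-LGP minus control, horizontal axis) of 42 other genes of the axis in 6 roles, 1 point per gene, orange where the groups do not overlap and with a dashed line at the median of all genes (0.02). The growth hormone response genes reach from -7.84 to -1.14, whereas the 14 signalling genes lie between -0.97 and 0.30.

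By the root mean square difference of centred log2 CPM over the 6 libraries, the genes with the pattern most like Igf1 among 12720 genes searched were Fgf1 (0.127), Fxyd1 (0.153) and Iqgap2 (0.197). Fgf1 measured 1.75, 89.0 and 169 CPM in controls 5, 6 and 7 and between 2.34 and 3.72 CPM in treated tumors. For Igfbp7 they were Des (0.115), which encodes the muscle and stellate cell filament desmin, P3h3 (0.120) and Calhm2 (0.155). Des measured 14.7, 10.4 and 10.3 CPM in the controls against 13.0, 19.0 and 6.92 CPM in treated tumors 1, 2 and 5. Treated tumor 2 was the highest and treated tumor 5 the lowest library for Igfbp7 and for Des alike, which follows from how Des was picked. The cells that made either RNA were not tested.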

How the data were processed

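Raw counts per gene of 6 tumor libraries, 3 control and 3 GOx-DOX-LGP, were analysed. The authors made these counts from trimmed and aligned reads, and deposited them without pooling. The sources conflict on how: the supplementary methods name TopHat and HTSeq, and the submitters' processing notes name Trimmomatic 0.38, HISAT2 2.1.0 and featureCounts 2.0.0. The genome build, annotation and use of strand are not given in the sources used here. The deposited signal values equal these counts over a size factor of the library (0.5321 to 1.3219), and were used for gene symbols. All 55536 identifiers are in GENCODE M21 (GRCm38), the source of positions and exonic lengths. Promoters came from RefSeq (GRCm38.p6), which matched 10 of 10 genes.

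Groups and numbers came from the labels, which do not say more than that each library is a separate numbered tumor, so p-values measure the spread between these samples. Genes were filtered with filterByExpr (15374 kept), scaled with TMM and tested with edgeR 4.0.16 (quasi-likelihood, R 4.3.3, threshold 0.05, no covariates), and checked on simulated data. Log2 CPM used a prior count of 2. DESeq2 1.42.0, the edgeR exact test, limma 3.58.1 voom with quality weights, other scalings, no filter on low counts, the hepatocyte covariate and leaving out each library were alternatives. Python 3.11.15 and matplotlib 3.10.9 were used for the figures. The 10 genes and all lists were chosen with earlier results of these data known. Beyond the 10 genes, the text names per role the genes with an adjusted p under 0.05 or, where none passed, the 2 with the largest absolute log2 fold change, the most abundant gene of each marker list with Alb, Ttr and Apoa1, and the 3 genes nearest in pattern to Igf1 and to Igfbp7 with a mean log2 CPM of at least 1. Further genes of the lists, such as Socs2, Socs3, Cish, Grb2, Cd68, Krt19 and Reln, are named outside this rule. They were singled out after their values had been seen. Protein sequences were not used here.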

Additional observations from a re-analysis of the deposited data

How the results depend on the processing

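Control 5 decided the calls. Without it, 7745 of all genes, 8 of the 10 axis genes and 26 genes of the listed pathway passed in edgeR, and without any other library 0 did, so the ranges over left-out libraries were 0 to 7745, 0 to 8 and 0 to 26. DESeq2 gave 1680, 3 and 11, the edgeR exact test 1098, 3 and 10, and limma voom with quality weights 9254, 8 and 31. The DESeq2 count of all genes is out of 33397, without the filter on low counts. The pathway counts here include Onecut1 where a setting kept it. At an unadjusted p under 0.05, 5 axis genes were lower in edgeR, 7 without control 5, 3 without control 6, 2 without control 7, 1 without GOx-DOX-LGP replicate 1 and 0 without GOx-DOX-LGP replicate 2 or 5. Other scalings, no filter on low counts and the hepatocyte covariate left the adjusted counts at 0. The sign turned with the hepatocyte covariate for Igfbp1 (0.18), Igfbp2 (0.21) and Igfbp4 (0.17), and without GOx-DOX-LGP replicate 2 for Igfbp7 (-0.11, with a range of -0.11 to 0.62 over left-out libraries). Of the 42 other axis genes, 8 turned in sign without 1 library or another. The cause was not tested. The log2 fold change without 1 library ranged from -5.15 to -3.79 for Igf1, from -7.16 to -5.70 for Igfals and from -1.07 to -0.49 for Ghr. The 2 tested shares of binding protein genes kept their sign in every alternative. No paired analysis was possible because the groups share only the number 5. Depth limits Igfals most, with 6 to 21 counts in control 5 and the treated tumors.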
